A study of Mus musculus with 6 samples.

Results

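The genes described are 10 members of the Eph receptor and ephrin families, chosen by name as EPHA1, EPHA2, EPHA4, EPHB2, EPHB4, EFNA1, EFNA4, EFNA5, EFNB1 and EFNB2, out of 19775 genes with a single-gene probe set on the array. Of the 10 genes, 9 had such a probe set, with 20 probe sets between them. EPHB2 was not analysed here. Expression was measured in tumours that NCI-H2228 cells formed under the skin of SCID mice, a strain without functional T and B cells. NCI-H2228 is a human lung adenocarcinoma line that carries the EML4-ALK fusion. All 3 groups were tumours of this line taken 6 h after an oral dose, of vehicle, of 4 mg/kg CH5424802 or of 20 mg/kg CH5424802, an inhibitor of the ALK kinase later named alectinib, with 2 arrays per group. Nothing in the labels ties the arrays of a group to separate mice, and each p-value therefore reflects scatter among single arrays that may be technical. The model rests on a single cell line. The labels name mouse as the organism, while the array reads human genes, and the part that mouse transcripts have in the values was not tested.

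Eph receptors form the largest family of receptor tyrosine kinases, and their ligands, the ephrins, sit in the membrane of neighbouring cells, so that signalling needs cell contact. A-type ephrins are held by a lipid anchor and mainly bind EphA receptors, and B-type ephrins span the membrane and mainly bind EphB receptors, with EphA4 able to bind both. Signals run forward into the receptor's cell and in reverse into the ephrin's cell, and steer repulsion, adhesion and tissue boundaries. In epithelial tumours EphA2 bound by ephrin-A1 restrains growth and motility, whereas unbound EphA2 can promote them after phosphorylation by AKT or RSK, and RAS-ERK signalling is known to raise EPHA2 transcription. The comparisons ask how the transcripts of receptors and ligands differ between tumours of vehicle-treated and ALK inhibitor-treated mice at each dose.

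At 20 mg/kg the transcripts of the receptors EPHA2 and EPHA4 fell, by log2 changes of -1.46 and -1.64, or 2.76-fold and 3.13-fold. The ligand EFNA1 was the member with a higher level, at log2 0.92, just short of the threshold (adjusted p = 0.0569). EFNA5 and EFNB2 had lower means that did not pass, and EFNA4 and EFNB1 had means close to those with vehicle. No member passed at 4 mg/kg, where EPHA2 had the lowest log2 change of the 7 on their brightest probe sets, at -0.61. A second bright probe set of EPHA4 stood at -0.93 at 4 mg/kg. At 20 mg/kg it stood at -1.83 and did not pass (adjusted p = 0.101 in limma over probe sets). In bulk tumour RNA, fewer cells of a type and less RNA per cell cannot be told apart. In all, 2 of the 7 tested members fell at 20 mg/kg, 0 rose and 5 did not pass, where 4.33% of the 10271 tested genes were called in either direction and 2.07% called lower. The median log2 change of the 7 was -0.49, against 0 over all tested genes. The members were chosen with earlier results of these data known, so these shares and medians are a description and no test of the families. The arrays of 20 mg/kg and vehicle did not overlap for 4 members with lower values (EPHA2, EPHA4, EFNA5 and EFNB2) and 1 with higher values (EFNA1), where 25.9% of tested genes separated downward and 24.5% upward.

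Intensities are on a linear scale, and levels are compared between arrays, not between probe sets. Sums over marker genes add probe sets that may respond unequally, and serve to compare arrays alone. The lowest value in every array was 4.578, at which between 39.46% and 40.16% of probe sets lay. Genes were tested where the mean log2 intensity of their brightest probe set reached 4. EPHA1 did not reach it: its brightest probe set, 205977_s_at, read 5.21 in all 6 arrays, and its other probe sets were at the floor. EPHB4, the receptor for ephrin-B2 and a marker of veins, lay just under the filter. Its brightest probe set, 216680_s_at, had a mean log2 of 3.84 and readings of 14.3 to 14.4 in the 6 arrays. The other, 202894_at, read 5.37 to 7.50, within 1 log2 unit of the floor in every group. There the vehicle arrays lay above the treated ones, the nearest at 5.88 against 5.84, which was not tested. EFNB1 lay just above the filter, at 4.07. The tumours carried epithelial markers at high readings, with EPCAM between 13258 and 21716 and CDH1, or E-cadherin, between 13647 and 17885. Of 8 endothelial markers, whose cells use EPHB4 and EFNB2, 6 were within 1 log2 unit of the floor in every group, CDH5, VWF and TEK among them. The others were PECAM1, at 348 to 456, and KDR, at 86.6 to 116, and the summed intensity of all 8 ran from 515 to 565 with vehicle, 464 to 571 at 4 mg/kg and 515 to 524 at 20 mg/kg. Fibroblast markers summed to between 35260 and 39720. Of these, COL1A1 read 31585 to 36324, COL1A2 1481 to 2187 and COL3A1 1065 to 1406, the last higher at 20 mg/kg than with vehicle without overlap (log2 0.29, adjusted p = 0.211), while PDGFRA, PDGFRB and THY1 lay at or near the floor. Leukocyte markers summed to between 104 and 108, mostly from LYZ, at 51.6 to 51.9, and ITGAM, at 26.1 in all 6 arrays. The host's cells are mouse cells and the array reads human genes. How far these probe sets read mouse transcripts was not tested, so the endothelial, fibroblast and leukocyte readings do not measure how much host tissue was present. On an 18S ribosomal RNA control, both vehicle arrays lay above the treated ones, at 1713 and 4058 against 374 to 637, and the part of this in the comparisons with vehicle was not tested. The 3′ to 5′ ratios of the ACTB control probe sets ran from 0.988 to 1.07 and overlapped between groups.

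**Figure D1:**
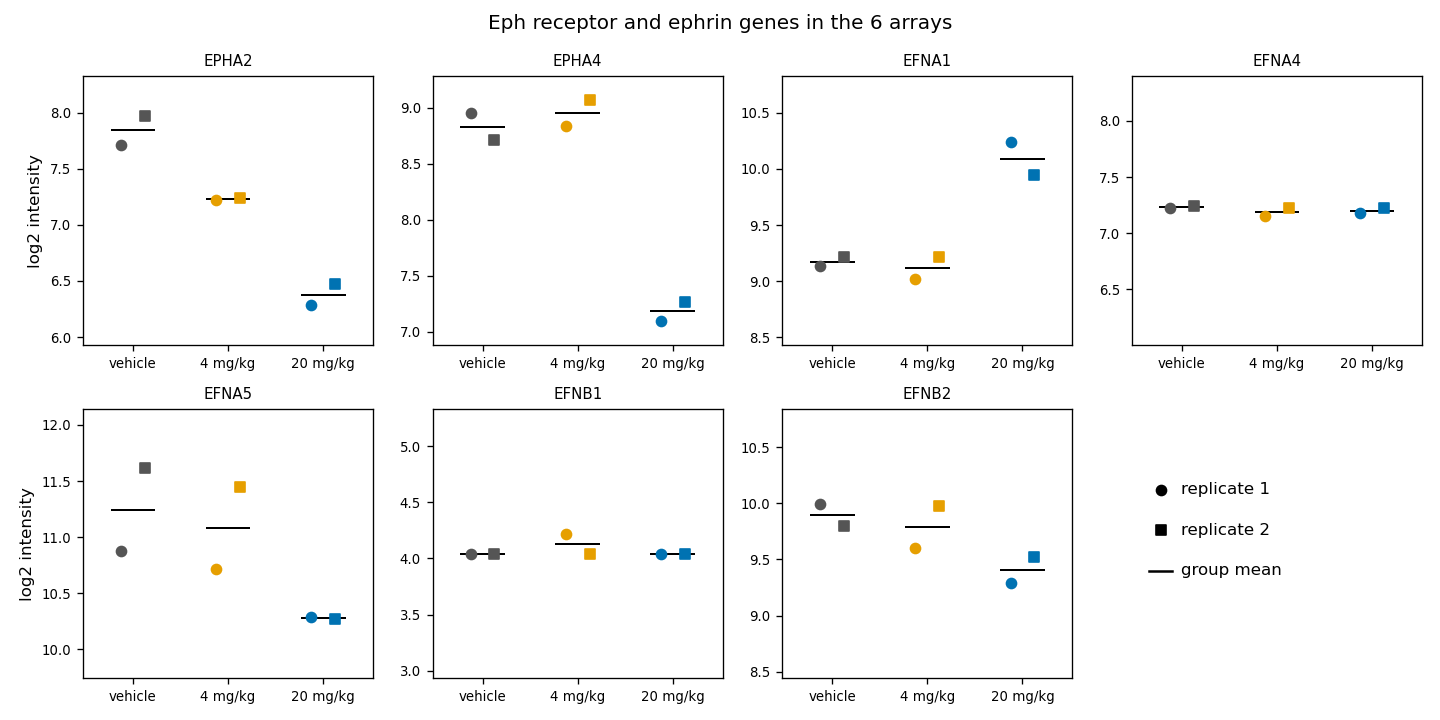
Log2 intensity (vertical axis, a separate range in each panel) of the brightest probe set of the 7 tested genes in the 6 arrays, by dose. Circles are replicate 1, squares replicate 2 and lines group means. EPHA2 steps down at each dose, EPHA4 is lower at 20 mg/kg alone, EFNA1 is higher at 20 mg/kg alone, and EFNA4 is nearly level.

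Among the receptors, EPHA2, with its single probe set 203499_at, read 210.1 and 251 with vehicle, 149.7 and 151 at 4 mg/kg, then 77.9 and 88.7 at 20 mg/kg. Each step down with dose separated the arrays of the groups, an order without overlap that 5.24% of tested genes also showed in the downward direction. The log2 means were 7.84 ± 0.18 (SD, n = 2), 7.23 ± 0.01 and 6.38 ± 0.13. At 20 mg/kg EPHA2 fell 2.76-fold (log2 change -1.46, SE 0.12, 95% confidence interval -1.80 to -1.13, adjusted p = 0.0258), and 75 of the 10271 tested genes had a lower log2 change. The 4 mg/kg change was -0.61 (SE 0.12, 95% interval -0.95 to -0.27), with an unadjusted p of 0.00792 and an adjusted p of 0.171 from limma, so this step did not pass; 14.8% of tested genes separated downward there without overlap. Between the doses the change was -0.85 (95% interval -1.19 to -0.52, adjusted p = 0.118). The call at 20 mg/kg was lost without vehicle replicate 2, the array with the highest 18S reading (log2 -1.34, adjusted p = 0.0716), without 20 mg/kg replicate 1 (-1.37, adjusted p = 0.123) or replicate 2 (-1.56, adjusted p = 0.0985), and without either 4 mg/kg array (-1.46, adjusted p = 0.0803), which changes the estimate of the spread alone. It held without vehicle replicate 1 (-1.59, adjusted p = 0.0328). Epithelial markers summed to 94137 and 104870 with vehicle, 100040 and 102290 at 4 mg/kg, then 83680 and 90680 at 20 mg/kg, so that this sum was lower in both 20 mg/kg arrays too. Its members differed in sign: KRT7, KRT8, KRT18 and KRT19 were lower at 20 mg/kg than with vehicle without overlap, while EPCAM (log2 0.50, adjusted p = 0.104) and CDH1 (0.23, adjusted p = 0.232) were higher without overlap. The part of this in the values of EPHA2 and EPHA4 was not tested.

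EPHA4, a receptor that takes ephrins of both classes, was read by its brightest probe set, 227449_at, at 494 and 418 with vehicle, 456 and 535 at 4 mg/kg, then 137 and 154 at 20 mg/kg. The vehicle and 4 mg/kg arrays overlapped, and both 20 mg/kg arrays lay below all others. At 20 mg/kg the gene fell 3.13-fold (log2 -1.64, SE 0.14, 95% interval -2.04 to -1.25, adjusted p = 0.0264), with 56 tested genes lower still in log2 change. Its change at the low dose was 0.12 (95% interval -0.27 to 0.51, adjusted p = 0.676). Between the doses it was -1.77 (SE 0.14, 95% interval -2.16 to -1.37, adjusted p = 0.0586), which missed the threshold. The log2 change between the doses uses no vehicle array, though the spread does, and on the 4 compared arrays alone the adjusted p was 0.125. The 18S readings of these arrays were 489 and 374 for the low dose, 573 and 637 for the high dose. The call at 20 mg/kg against vehicle was lost without vehicle replicate 2 (-1.76, adjusted p = 0.0822), without 20 mg/kg replicate 1 (-1.56, adjusted p = 0.137) or replicate 2 (-1.73, adjusted p = 0.107), and without either 4 mg/kg array (-1.64, adjusted p = 0.0685). It held without vehicle replicate 1 (-1.53, adjusted p = 0.0499).

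A second bright probe set of EPHA4, 229374_at, gave another shape at the low dose. It read 389 and 621 with vehicle, 229 and 290.2 at 4 mg/kg, then 115 and 166 at 20 mg/kg, so that its arrays were ordered by dose without overlap, downward, as in 4.68% of probe sets past the filter. Its log2 change at 20 mg/kg, -1.83 (SE 0.34, 95% interval -2.81 to -0.85), was close to that of 227449_at, but with the wider spread between replicates it did not pass in the fit over 19830 probe sets (adjusted p = 0.101). Against vehicle the 4 mg/kg arrays stood at -0.93 (95% interval -1.91 to 0.05, adjusted p = 0.37), where 227449_at stood at 0.12. The log2 difference of 229374_at from 227449_at within an array was -0.34 and 0.57 with vehicle, -0.996 and -0.88 at 4 mg/kg, then -0.25 and 0.11 at 20 mg/kg. This difference was lowest in both 4 mg/kg arrays, and was not tested. The remaining 3 probe sets of EPHA4 were under the level filter. Of these, 228948_at read between 8.46 and 10.2, and 206114_at and 238671_at were at the floor or, in 1 array, just above it.

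**Figure D2:**
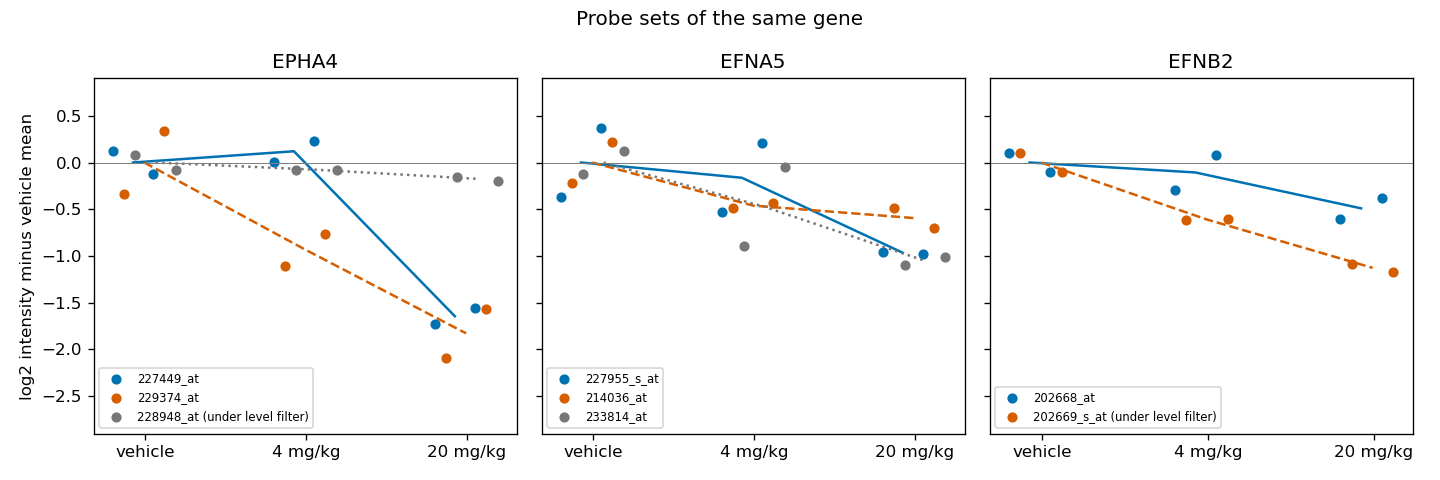
Log2 intensity minus the vehicle mean of the same probe set (vertical axis) for the probe sets of EPHA4, EFNA5 and EFNB2 with a mean log2 above 3, by dose. Points are arrays and lines join group means. The bright EPHA4 probe sets part at 4 mg/kg (0.12 and -0.93) and meet at 20 mg/kg (-1.64 and -1.83), and the 3 EFNA5 probe sets all lie below 0 at 20 mg/kg.

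Among the A-type ligands, EFNA1, which encodes ephrin-A1, the main partner of EphA2 in epithelia, was the member with a higher level. Probe set 202023_at, its only one, read 562 and 593 with vehicle, 518 and 593 at 4 mg/kg, then 1210 and 984 at 20 mg/kg. Both 20 mg/kg arrays lay above the other 4, which overlapped between vehicle and 4 mg/kg. The log2 means were 9.17 ± 0.05, 9.11 ± 0.14 and 10.09 ± 0.21 (SD, n = 2). Against vehicle the 20 mg/kg arrays were 1.89-fold higher (log2 0.92, SE 0.13, 95% interval 0.53 to 1.31), with an unadjusted p of 0.00311 and an adjusted p of 0.0569 from limma. Against 4 mg/kg the log2 change was 0.98 (95% interval 0.59 to 1.36, adjusted p = 0.118), and 65 tested genes had a higher one. The gene passed at 20 mg/kg against vehicle under 5 of the 18 alternatives tried. Among these were the filter at a mean log2 of 5 (adjusted p = 0.049) and the fit without tied genes (adjusted p = 0.0316). It did not pass in limma under the other 13. Among those were no level filter (adjusted p = 0.172), the replicate block (adjusted p = 0.115) and the 4 compared arrays alone (adjusted p = 0.113). EPHA2 and EFNA1, receptor and ligand, stood at -1.46 and 0.92 in the same arrays, with EFNA1 short of the threshold. A relation between them was not tested.

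EFNA5, which encodes ephrin-A5, had 3 bright probe sets with the same direction at 20 mg/kg and none past the test. The brightest, 227955_s_at, read 1878 and 3139 with vehicle, 1679 and 2801 at 4 mg/kg, then 1253 and 1234 at 20 mg/kg. Replicates with vehicle and at 4 mg/kg were wide apart, while both 20 mg/kg arrays lay below all others. Its log2 change at 20 mg/kg was -0.97 (SE 0.38, 95% interval -2.06 to 0.13, adjusted p = 0.25), and -0.60 without vehicle replicate 2 or -1.34 without vehicle replicate 1. In the fit over probe sets, 233814_at was at -1.05 (adjusted p = 0.202) and 214036_at at -0.59 (adjusted p = 0.197). The same 3 probe sets at 4 mg/kg were at -0.16, -0.47 and -0.46, with unadjusted p-values from limma between 0.0681 and 0.696. The 4 mg/kg value of 227955_s_at turned to 0.21 without vehicle replicate 2 or without 4 mg/kg replicate 1. A further probe set, 207301_at, was at the floor in all 6 arrays.

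EFNA4, which encodes ephrin-A4, had close readings in all groups, with the identical value of 149.43 in an array of each. Such equal values can be left by the processing, so the narrow intervals are no measure of steady expression. Its probe set read 149.4 and 152 with vehicle, 143 and 149.4 at 4 mg/kg, then 145 and 149.4 at 20 mg/kg, and the arrays overlapped in each comparison. The log2 change was -0.03 at 20 mg/kg (95% interval -0.13 to 0.07) and -0.04 at 4 mg/kg (-0.15 to 0.06).

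Among the B-type ligands, EFNB2, which encodes ephrin-B2, the partner of EphB4, read 1018 and 889.9 with vehicle, 775 and 1009 at 4 mg/kg, then 625 and 734 at 20 mg/kg on probe set 202668_at. Both 20 mg/kg arrays lay below the other 4. The log2 change of -0.49 (SE 0.18, 95% interval -1.002 to 0.02) did not pass (adjusted p = 0.22). Its dim probe set 202669_s_at, under the level filter, read 20.0 and 17.4, then 12.1 and 12.3, then 8.80 and 8.26. This was an order by dose without overlap, whose share among such dim probe sets was not counted. Its 20 mg/kg mean lay within 1 log2 unit of the floor. With the mean of both probe sets, which gives this dim one equal weight, the gene was called in limma (log2 -0.81, adjusted p = 0.0424). In that fit 474 of 8884 genes were called. EFNB1, which encodes ephrin-B1, read the identical 16.489 in 5 arrays and 18.6 in 4 mg/kg replicate 1. Its log2 change at 20 mg/kg was 0.00 (95% interval -0.19 to 0.19), at a level where the array hardly reads above its filter. As equal values can be left by the processing, this is no measure of steady expression.

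**Figure D3:**
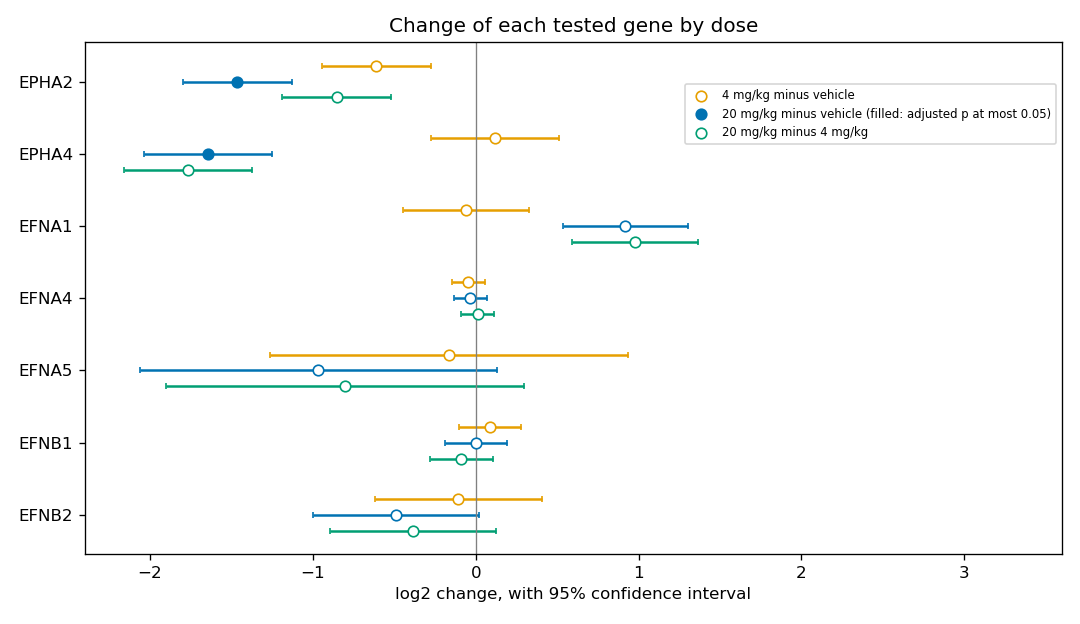
Log2 change (horizontal axis) with its 95% confidence interval for the 7 tested genes in the 3 comparisons, from limma over all 6 arrays. Filled points passed the adjusted threshold of 0.05. The filled points are EPHA2 (-1.46) and EPHA4 (-1.64) at 20 mg/kg against vehicle, and the EFNA5 intervals are the widest shown.

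Against vehicle, 4 mg/kg gave 0 of 7 members past the test, where 0.0584% of tested genes were called, and 1 member, EPHA2, had an unadjusted p under 0.05 in limma. Their median log2 change was -0.06, against 0 over all tested genes. Between 20 and 4 mg/kg 0 of 7 passed, where 0.37% of genes were called, and EPHA2, EPHA4 and EFNA1 had an unadjusted p under 0.05. The median there was -0.38, against -0.0058 over all tested genes. The same 4 members lay lower without overlap and EFNA1 higher, where 22.8% of tested genes separated downward and 13.6% upward. The comparisons share arrays, so their values are not independent. The share of all genes or probe sets with an unadjusted p under 0.05 was not counted, so the unadjusted values of the members are a description. At the level of probe sets, 10 of the 20 belonging to members passed the filter, and 2 of these 10 were called at 20 mg/kg against vehicle, 203499_at of EPHA2 (adjusted p = 0.0342) and 227449_at of EPHA4 (adjusted p = 0.0356), where 2.63% of 19830 probe sets were called. In limma 0 of the 10 passed at 4 mg/kg, where 0.00504% of probe sets were called, and 0 between the doses, where 0.212% were (unadjusted p under 0.05 for EPHA2 at 4 mg/kg, then for EPHA2, EPHA4 and EFNA1 between the doses).

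The other 12 genes of the families showed no called change. EPHA3, EPHA5, EPHA6, EPHA7, EPHA10, EPHB1, EFNA2 and EFNA3 lay under the level filter, and EPHA5, EPHA7, EFNA2 and EFNA3 were at the floor in every array on every probe set. EPHB3, a receptor for B-type ephrins, read 354 and 495 with vehicle, 333 and 433 at 4 mg/kg, then 352 and 363 at 20 mg/kg, with a log2 change of -0.23 at 20 mg/kg (95% interval -0.87 to 0.42). Its second probe set was at 0.14 in that comparison. EPHB6, a receptor whose kinase domain is inactive, was at 0.10 (95% interval -0.35 to 0.54), EPHA8 at 0.00 and EFNB3 at 0.00. EPHA8 read the identical 35.241 in every array but 4 mg/kg replicate 1, at 36. The EFNB3 probe set, 210883_x_at, read exactly 366 in all 6 arrays, and probe sets of its name type may cross-hybridise, while the other EFNB3 probe set was at the floor. None of the 4 tested genes had an unadjusted p under 0.05 in any comparison with limma.

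Proteins that carry or end Eph and ephrin signals were counted from a list of 41, of which 31 were tested. At 20 mg/kg against vehicle 2 rose, 0 fell and 29 did not pass, where 2.26% of all tested genes were called higher, and the median log2 change was 0.00, the same as over all genes. VAV3, a signalling protein that binds activated Eph receptors, read 1238 and 1330.3 with vehicle, 2098 and 2015 at 4 mg/kg, then 3628 and 3261 at 20 mg/kg. Its arrays were ordered by dose without overlap, upward, as in 4.61% of tested genes. It rose 2.68-fold at 20 mg/kg (log2 1.42, SE 0.07, adjusted p = 0.015), and was at 0.68 at 4 mg/kg (adjusted p = 0.129). Other VAV3 probe sets were higher too at 20 mg/kg, at 0.97 and 0.59, and with the next brightest the gene was not called (adjusted p = 0.125).

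NCK1, an adaptor that links tyrosine-phosphorylated receptors to the actin cytoskeleton, read 1069.8 and 824 with vehicle, 1926 and 2456 at 4 mg/kg, then 4288 and 3737 at 20 mg/kg on its brightest probe set. This rise was 4.26-fold at 20 mg/kg (log2 2.09, SE 0.20, adjusted p = 0.0326). Its next brightest probe set gave 0.74 (adjusted p = 0.0505 when it stood for the gene, 0.0494 in the fit over probe sets) and the mean of all of them 0.90 (adjusted p = 0.0617). The low dose gave 1.21 on the brightest and -0.11 on the next, which differ in sign. Both calls were lost without vehicle replicate 2 (VAV3 1.47 and NCK1 1.90, adjusted p = 0.0583 and 0.104), and without 20 mg/kg replicate 1 (1.35 and 1.99, adjusted p = 0.0757 and 0.16) or replicate 2 (1.499 and 2.19, adjusted p = 0.0697 and 0.128), and without either 4 mg/kg array (adjusted p = 0.0562 and 0.0757). Without vehicle replicate 1 they held (1.37 and 2.28, adjusted p = 0.0334 and 0.0471). ADAM10, the protease that cleaves ephrin-A ligands from the cell surface, did not pass (log2 0.57, adjusted p = 0.0655). It was chosen to be named after its value was seen, as were TIAM1 and SHB. TIAM1, an exchange factor for Rac, had the lowest value in the list (-1.37, adjusted p = 0.0798), with dim readings of 14.6 and 16.6 at 20 mg/kg. SHB, an adaptor of EphA2, was at -1.34 (adjusted p = 0.0906). CRKL (-0.25, adjusted p = 0.0553), ABL2 (-0.27, adjusted p = 0.0639) and CBL (0.66, adjusted p = 0.0645), also picked by value, lay nearer the threshold in limma. Of the 31, 0 passed at 4 mg/kg, where 0.0584% of tested genes were called, and 0 between the doses, where 0.37% were. In limma 10 and 4 of them had an unadjusted p under 0.05. The share of all tested genes under that unadjusted cut-off was not counted, so the 10 and 4 are no result about the list.

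The genes whose profile over the 6 arrays lay nearest to those of EPHA2 and EPHA4 were found by the root mean square difference of centred log2 values. For EPHA2 these were FAM83A (0.0883 log2 units), PITX1 (0.11) and DUSP5 (0.111), at log2 -0.64, -0.55 and -0.71 at 4 mg/kg, then -1.66, -1.27 and -1.34 at 20 mg/kg against vehicle. For EPHA4 they were CXCL1 (0.0729), MAP3K9 (0.136) and UBASH3B (0.139), at 0.19, -0.12 and 0.17 at 4 mg/kg, then -1.48, -1.57 and -1.84 at 20 mg/kg. These genes were chosen for their profile over the same arrays, so their values are a description. At 20 mg/kg PITX1 and DUSP5 did not pass (adjusted p = 0.055 and 0.0546). Of 9 epithelial markers 1 fell at 20 mg/kg, where 2.07% of tested genes were called lower. It was the keratin KRT18 (log2 -1.54, adjusted p = 0.0416 in limma), while its partner KRT8 was at -0.88 (adjusted p = 0.0529). Of the 9, 3 had positive log2 changes, EPCAM (0.50) and CDH1 (0.23) among them.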

How the data were processed

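The authors deposited intensity on a linear scale for 54675 probe sets. The submitters' processing notes name GCRMA and R 2.10.0, and the set of arrays it was run on is not known here. This method corrects background by probe sequence, normalizes by quantiles and summarises by median polish, which can leave equal values in different arrays, and the lowest values lie at 4.578. Intensities were converted to log2. The platform annotation, dated 2016, gave 41097 probe sets with 1 gene, 1801 with several and 11777 with none listed. The brightest single-gene probe set stood for each gene, and genes with a mean log2 under 4 were left out. limma 3.58.1 in R 4.3.3 (lmFit, eBayes) was fitted over all 6 arrays and all 10271 genes, and again over all 19830 probe sets past the filter, two-sided, with Benjamini-Hochberg adjustment and a threshold of 0.05. The model had 3 residual and 0.723 prior degrees of freedom, and SEs are pooled over the groups. The fit was also run on simulated data with independent normal noise and no tied values. That setting is simpler than these arrays, so it cannot vouch for the fit where values are tied.

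Members and lists were chosen with earlier results of these data known. All family genes are named, with partners that passed, the 3 nearest profiles of each called member, and control and marker genes. CHN2, RASA1, CRK, PTPRJ and CD68 were not analysed here. Alternatives changed the filter, probe set, pseudocount, scaling, block, moderation and arrays. Human sequences were not used here.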

Additional observations from a re-analysis of the deposited data

How the results depend on the processing

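The small number of arrays limits all calls. Over all alternatives the log2 change at 20 mg/kg against vehicle ran from -1.59 to -1.31 for EPHA2 and from 0.77 to 1.07 for EFNA1. For EPHA4 it ran from -1.83 to -0.74, the last with the mean of probe sets, 3 of them under the level filter. Members called at 20 mg/kg against vehicle, 2 in the fit reported, were 0 with no level filter, with the next brightest probe set, with the 4 compared arrays alone and with the replicate block, 4 with the mean of probe sets and 5 with centred arrays, and 0 to 2 with an array left out. The mean of probe sets called 474 of 8884 genes in all, and centred arrays called 1958 of 10271. Between the doses, 0 became 3 with centred arrays or repeated quantile normalization, and 1 with the filter at 5 or without tied genes. All genes called between the doses in these 4 settings were 494 and 330 of 10271, 53 of 9379 and 77 of 9740. At 4 mg/kg, 0 became 1, EPHA2, with centred arrays, where 766 of 10271 genes were called. Member probe sets called at 20 mg/kg, 2, were 8 with centred arrays, 5 after quantile normalization, 0 with no filter, the 4 arrays alone or the replicate block, and 0 to 1 with an array left out. Between the doses they were 3 under both scalings and 1 without tied probe sets, and at 4 mg/kg 1 with centred arrays. The share of all probe sets called under these alternatives is not given here, so the probe set counts are a description.

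All genes called at 20 mg/kg against vehicle, 445, were 1958 with centred arrays, 1598 after quantile normalization, 819 without tied genes, 285 without _x_at and _s_at probe sets, 136 with the 4 arrays alone, 93 with the replicate block, 91 with the next brightest probe set, 57 with no filter, and 5 to 802 with an array left out. Between the doses, 38 became 494, 330, 77 (without tied genes), 7 (next brightest), 8 (no filter), 0 (the 4 arrays alone or the replicate block), and 0 to 218 with an array left out, with 34.2% of calls higher in the fit reported, 46% with centred arrays and 47% after quantile normalization. At 4 mg/kg, 6 became 766 with centred arrays (67.5% higher against 50%), 111 after quantile normalization (64.9% higher), 3 with no filter and 2 with an intensity trend. It became 0 with log2(value + 16), the filter at 5, the mean or next brightest probe set, the 4 arrays alone, the replicate block or without tied genes, and 0 to 475 with an array left out.

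Same-numbered arrays' deviations from group means correlated at 0.146, -0.118 and 0.127, which does not show that the numbers pair the arrays. With the replicate block EPHA2 at 20 mg/kg had an adjusted p of 0.0508 and EPHA4 of 0.0675, at the same log2 changes. A crossed replicate block, added after seeing the data, called 0 genes, 0 members and 0 member probe sets.

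Values that changed sign were outside the calls, and the causes were not tested. With an array left out, the change at 4 mg/kg against vehicle ran from -0.16 to 0.039 for EFNA1, from -0.53 to 0.21 for EFNA5, from -0.297 to 0.084 for EFNB2, from -0.38 to 0.10 for EPHB3 and from -0.0045 to 0.38 for EPHB6. Between the doses it ran from -0.021 to 0.046 for EFNA4 and from -0.28 to 0.10 for both EPHB3 and EPHB6, and for EPHB3 at 20 mg/kg from -0.47 to 0.013. With centred arrays, EFNB1 was at -0.011 and EPHA8 at -0.083 at 4 mg/kg, and EPHA8 at 0.052 between the doses. With the next brightest probe set, EPHA4 was at -0.93, EPHB3 at 0.047 and NCK1 at -0.11 at 4 mg/kg, and EPHB3 at 0.14 at 20 mg/kg and 0.098 between the doses. With the mean of probe sets, EPHA4 was at -0.18 at 4 mg/kg and EPHB3 at 0.0051 between the doses.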
